A study of Mus musculus with 6 samples.

Results

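Small nucleolar RNAs (snoRNAs) and non-coding genes of the kind that carry snoRNAs were followed in mouse lung epithelial cells in which Nkx2-1, a homeobox transcription factor of the lung and thyroid epithelium, had been knocked down. The members were taken from the array annotation by symbol alone: every transcript cluster (the unit the array reports, a set of probes read as 1 transcript) with a single gene symbol that named a Snord gene, a Snora gene, a numbered Snhg gene or Gas5. Where several such clusters named the same gene, its row was chosen by mean level over all 6 arrays (the highest was kept), and the difference between the groups was not used. This gave 57 of the 19938 genes with a single symbol: 31 box C/D snoRNAs, 20 box H/ACA snoRNAs and 6 host genes. They came from 68 transcript clusters, and 8 members had more than 1. Another 17 clusters that named such a gene together with a second gene were left out.

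The cells were MLE15, a line derived from lung tumors of mice carrying SV40 large T antigen under the human SFTPC promoter. Lines transduced with a mix of 3 Nkx2-1 shRNAs in the pLKO.1 lentivirus (n = 3) were compared with lines that received the pLKO.1 empty vector (n = 3), all labelled 48 h and all selected with puromycin. Total RNA was isolated with the RNeasy kit in both groups and hybridized to Affymetrix Mouse Gene 1.0 ST arrays after whole-transcript labeling. Silica columns of this type recover RNAs of snoRNA size incompletely, and probes within a snoRNA also read the unspliced host RNA around it. The values given are therefore levels of signal at the snoRNA, not of the mature RNA alone. In such bulk samples fewer cells expressing an RNA and less RNA per cell cannot be told apart.

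SnoRNAs are short nucleolar RNAs that pair with other RNAs and guide enzymes to them. Box C/D snoRNAs direct 2′-O-methylation through fibrillarin, and box H/ACA snoRNAs direct pseudouridylation through dyskerin, in both cases mostly on ribosomal RNA. A few, such as U3, U8, U14 and U17, are needed for cleavage of the ribosomal RNA precursor. In mammals nearly all are excised from introns. The hosts are either genes for ribosomal proteins and other parts of the translation machinery, or non-coding genes such as Gas5 and the Snhg genes, whose spliced RNAs are often unstable. By the mouse annotation (GRCm38.p6), 50 of the 51 snoRNAs lay within another gene, in 40 hosts in all, and the exception was Snord118, the U8 RNA, which has its own promoter. The annotated box C/D RNAs were 45 to 148 nt long (median 68) and the box H/ACA RNAs 61 to 205 nt (median 125).

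Nkx2-1 itself was at 7.91, 7.98 and 7.83 in Nkx2-1-shRNA lines, against 8.61, 8.61 and 8.59 in empty vector lines, on the log2 scale of the arrays (log2 fold change −0.69 ± 0.08 (SE), limma adjusted p = 0.00155). Sftpc, a surfactant protein gene of alveolar type II cells, was at 4.10, 4.29 and 3.85 in Nkx2-1-shRNA lines, against 7.22, 7.92 and 8.05 in empty vector lines (adjusted p = 0.000195). A second surfactant protein gene, Sftpb, did not fall (log2 fold change 0.14, limma adjusted p = 0.249). Foxa2 was lower (−0.44, adjusted p = 0.0375) and Krt18 higher (0.44, adjusted p = 0.00825). The epithelial genes Cdh1, Epcam, Krt8 and Krt18 were well above the background limit. This limit, a log2 value of 4.35, was the 95th percentile of 1248 olfactory, taste and vomeronasal receptor clusters, and all 3 Sftpc values of the Nkx2-1-shRNA lines were under it. Of 5 fibroblast markers, 4 (Col1a1, Col1a2, Col3a1 and Pdgfra) were above it in both groups. All 3 endothelial markers and 2 of 3 measured leukocyte markers were below it, and no fibroblast, endothelial or leukocyte marker changed. The array medians were 5.10 to 5.14 in Nkx2-1-shRNA lines and 5.18 to 5.21 in empty vector lines, and the median log2 fold change of all 35557 clusters was −0.03. Of all called clusters, 54.8% were lower, and 40.5% after the arrays were centered on their medians.

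Many snoRNAs of both classes fell in Nkx2-1-shRNA lines, and none of the 6 Snhg and Gas5 genes was called. Of these 6, only Gas5 holds a snoRNA member (Snord47). Of the 9 non-coding genes that hold snoRNA members, Gas5 alone was measured by a cluster of its own. Of 31 box C/D snoRNAs, 12 were lower at a limma adjusted p under 0.05, against 9.24% of all transcript clusters, and none was higher, against 7.61%. Of 20 box H/ACA snoRNAs, 7 were lower and none was higher by the same test. In the whole snoRNA set, 31 members had an unadjusted p under 0.05 for a lower level, against 17.1% of all clusters, and 0 for a higher one, against 12.5%. The median log2 fold change was −0.37 for box C/D (range −1.34 to 0.06) and −0.39 for box H/ACA (range −0.66 to −0.09), or −0.29 and −0.31 with the arrays centered on their medians. A fold change below 0 was found for 29 of the 31 and for all 20, compared with 55.4% of all clusters. All 3 Nkx2-1-shRNA lines lay below all 3 empty vector lines for 17 box C/D and 12 box H/ACA snoRNAs, against 19.8% of all clusters, and the reverse order was found for none. The host genes, each read at its cluster with the highest mean, had a median log2 fold change of 0.01. By limma none had an unadjusted p under 0.05 there. Other clusters of Gas5 (log2 fold change −0.49, limma adjusted p = 0.00765) and Snhg17 (−0.41, adjusted p = 0.0135) were called lower.

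**Figure D1:**
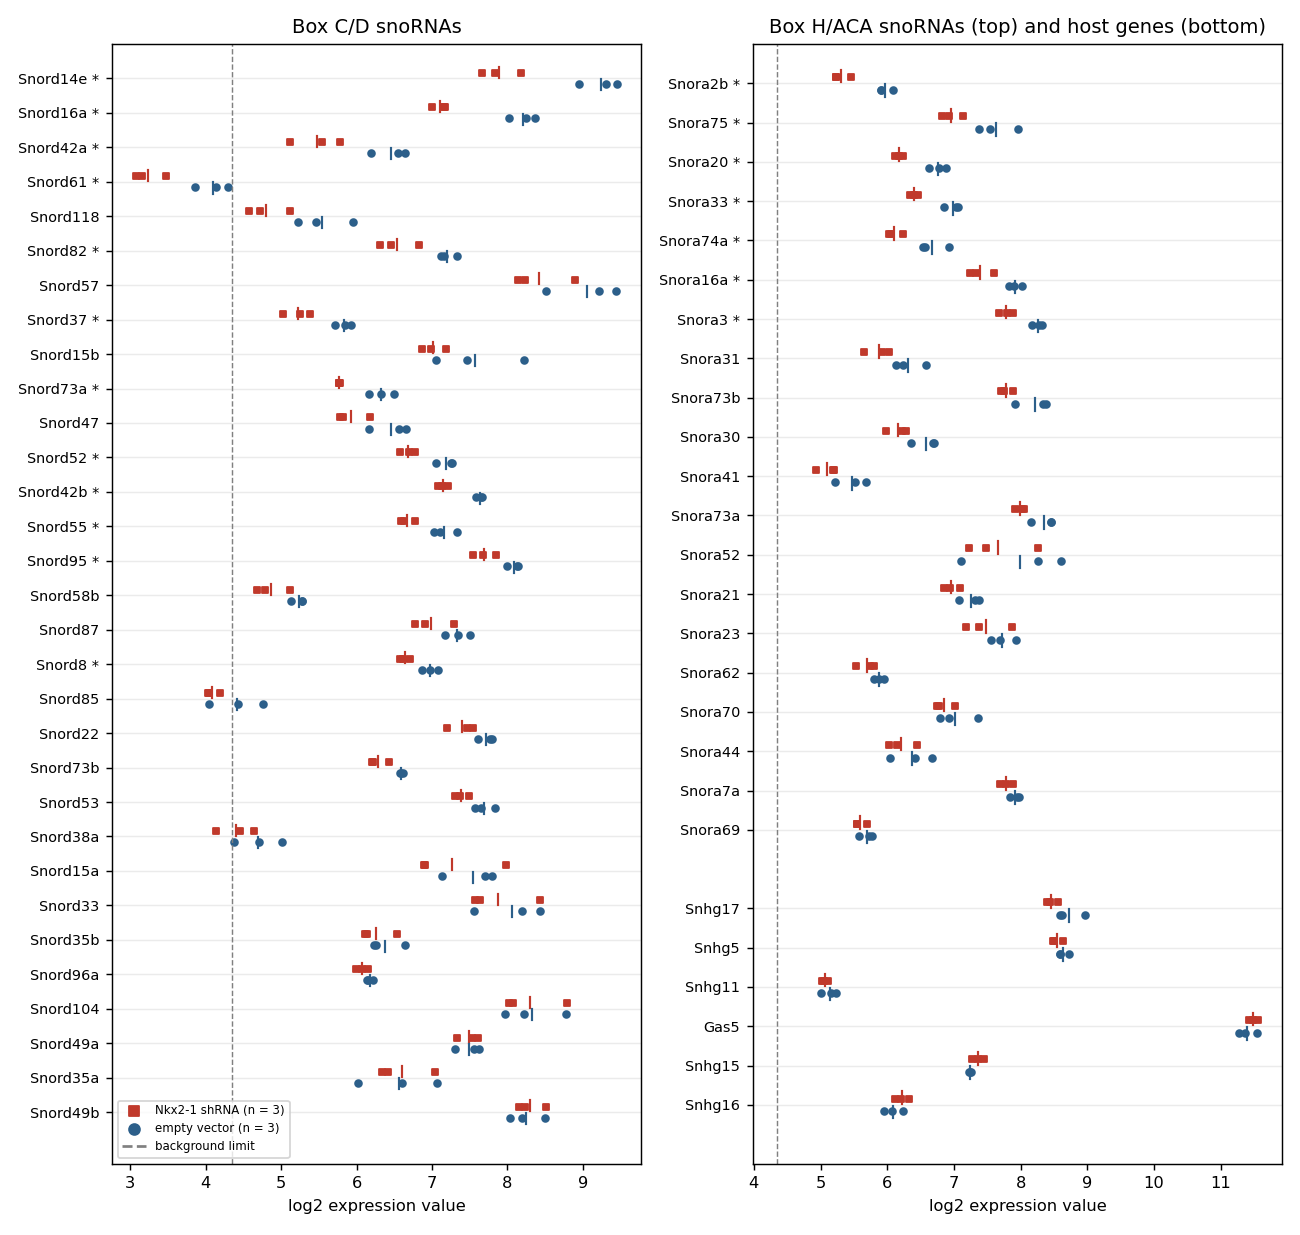
Log2 expression values of the 31 box C/D snoRNAs, the 20 box H/ACA snoRNAs and the 6 host genes in each array (squares, Nkx2-1-shRNA lines; circles, empty vector lines; vertical ticks, group means; n = 3 each), ordered by fold change; asterisks mark an adjusted p under 0.05 and the background limit (4.35) is dashed. Squares lie to the left of circles in 29 of 51 snoRNA rows without overlap.

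The count of 19 called snoRNAs depended on the test and on single arrays. It was 9 with the unmoderated test named in the study's methods, 1 when that test also allowed unequal variances and 10 without Nkx2-1-shRNA line 1. It was 23 among clusters above the background limit, 26 with a filter at the median level and 29 when clusters with 1 gene symbol were tested alone. The shares of all clusters called lower under these 3 filters were 16.6%, 20.1% and 13.6%. Where all 51 snoRNAs were kept, 46 to 51 fold changes were below 0, and 48 of 50 were below 0 above the background limit and 45 of 47 above the median level. Under the 3 settings with fewer calls 5.58%, 2.14% and 5.10% of all clusters were lower, so that with unequal variances the snoRNAs (1.96%) were called no more often than the table as a whole. The 3 lines of a group were separate transductions of a single parental line, so the p-values describe the spread among such lines.

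The box C/D RNAs with the largest fold changes above background lie in Hspa8, Rpl4 and Rpl23a. Snord14e, a copy of U14, which takes part in making 18S ribosomal RNA, lies in the heat shock cognate gene Hspa8. It was at 7.84, 7.67 and 8.18 in Nkx2-1-shRNA lines, against 9.31, 8.94 and 9.46 in empty vector lines. Every Nkx2-1-shRNA line was below every empty vector line by more than the spread within either group, and the level was 39.4% of that in empty vector lines (log2 fold change −1.34 ± 0.18 (SE), limma adjusted p = 0.00328). Snord16a, in the ribosomal protein gene Rpl4, was at 7.002, 7.15 and 7.18 in Nkx2-1-shRNA lines, against 8.24, 8.36 and 8.01 in empty vector lines. The groups were far apart with little spread, and the level was 46.8% of that in empty vector lines (log2 fold change −1.10 ± 0.11 (SE), limma adjusted p = 0.0012). Snord42a and Snord42b share the host Rpl23a, another ribosomal protein gene. Snord42a was at 5.12, 5.78 and 5.54 in Nkx2-1-shRNA lines, against 6.19, 6.65 and 6.55 in empty vector lines (log2 fold change −0.98 ± 0.19 (SE), limma adjusted p = 0.016). Snord42b was at 7.21, 7.13 and 7.08 in Nkx2-1-shRNA lines, against 7.65, 7.67 and 7.59 in empty vector lines (log2 fold change −0.49 ± 0.08 (SE), limma adjusted p = 0.00642). Both fell with no overlap, Snord42a by a larger amount and with more scatter between lines.

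Snord82 and Snord37 are carried by nucleolin (Ncl), an abundant nucleolar protein, and by elongation factor Eef2. Values of Snord82 were 6.31, 6.46 and 6.82 in Nkx2-1-shRNA lines, against 7.16, 7.11 and 7.33 in empty vector lines (log2 fold change −0.67 ± 0.14 (SE), limma adjusted p = 0.0208). Values of Snord37 were 5.38, 5.02 and 5.25 in Nkx2-1-shRNA lines, against 5.71, 5.93 and 5.84 in empty vector lines (log2 fold change −0.61 ± 0.12 (SE), limma adjusted p = 0.0142). In both cases the highest Nkx2-1-shRNA line stayed under the lowest empty vector line. Snord73a, in the ribosomal protein gene Rps3a1, was nearly the same in the knockdown lines, at 5.77, 5.77 and 5.78, against 6.32, 6.49 and 6.16 in empty vector lines (log2 fold change −0.55 ± 0.10 (SE), limma adjusted p = 0.0114). Its neighbor in the same gene, Snord73b, was also without overlap between groups but was not called (log2 fold change −0.31, adjusted p = 0.0605). Snord55, another box C/D guide, was at 6.58, 6.78 and 6.63 in Nkx2-1-shRNA lines, against 7.03, 7.10 and 7.33 in empty vector lines (log2 fold change −0.49 ± 0.11 (SE), limma adjusted p = 0.0234).

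The other called box C/D RNAs were Snord52, Snord95, Snord8 and Snord61. Snord52, in the non-coding gene 1110038B12Rik, was at 6.57, 6.77 and 6.69 in Nkx2-1-shRNA lines, against 7.25, 7.26 and 7.05 in empty vector lines (log2 fold change −0.51 ± 0.10 (SE), limma adjusted p = 0.0138). Snord95 and Snord96a are both in Rack1, which encodes a ribosomal scaffold protein. Snord95 was at 7.68, 7.54 and 7.85 in Nkx2-1-shRNA lines, against 8.14, 8.12 and 8.00 in empty vector lines (log2 fold change −0.40 ± 0.10 (SE), limma adjusted p = 0.0422), whereas Snord96a differed by −0.10 (adjusted p = 0.462). Snord8, in the chromatin remodeler gene Chd8, guides methylation of U6 small nuclear RNA in human. It was at 6.58, 6.71 and 6.62 in Nkx2-1-shRNA lines, against 7.08, 6.87 and 6.97 in empty vector lines (log2 fold change −0.34 ± 0.09 (SE), limma adjusted p = 0.0413). Snord61, in the RNA-binding protein gene Rbmx, was called (adjusted p = 0.0106) with values of 3.07, 3.16 and 3.48 in Nkx2-1-shRNA lines, against 4.30, 4.13 and 3.86 in empty vector lines. All 6 values were under the background limit, and no fold is given for it. With the limit required in both groups, 18 of 49 snoRNAs were lower, against 12.7% of all clusters above it. The 20 genes beside Snord61 on the X chromosome, 10 on each side, had a median log2 fold change of −0.58. Genes beside the other snoRNAs had medians between −0.23 and 0.30. Only genes above the background limit in either group were taken, without the host itself and without snoRNA, Snhg or Gas5 genes.

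Called box H/ACA RNAs were of more even size. Snora2b, in the chromatin complex gene Kansl2, was at 5.22, 5.24 and 5.46 in Nkx2-1-shRNA lines, against 5.91, 6.09 and 5.91 in empty vector lines (log2 fold change −0.66 ± 0.10 (SE), limma adjusted p = 0.00592). Snora75, the U23 RNA, is the second guide carried by nucleolin and was at 6.93, 6.83 and 7.13 in Nkx2-1-shRNA lines, against 7.54, 7.38 and 7.96 in empty vector lines (log2 fold change −0.66 ± 0.16 (SE), limma adjusted p = 0.0345). The groups did not overlap for either RNA, and empty vector line 3 was the highest array for Snora75. Snora20, in the chaperonin gene Tcp1, was at 6.24, 6.12 and 6.18 in Nkx2-1-shRNA lines, against 6.88, 6.63 and 6.77 in empty vector lines (log2 fold change −0.58 ± 0.09 (SE), limma adjusted p = 0.00687). Snora33, in Rps12, was at 6.34, 6.47 and 6.40 in Nkx2-1-shRNA lines, against 7.04, 7.06 and 6.85 in empty vector lines (log2 fold change −0.58 ± 0.09 (SE), limma adjusted p = 0.00603). Within each group these last RNAs varied by less than 0.3 on the log2 scale.

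Snora3, in Rpl27a, was measured by 2 transcript clusters that both fell. The one used was at 7.79, 7.68 and 7.88 in Nkx2-1-shRNA lines, against 8.32, 8.17 and 8.28 in empty vector lines (log2 fold change −0.48 ± 0.09 (SE), limma adjusted p = 0.0129), and the other differed by −0.45 (adjusted p = 0.0155). Snora74a, the U19 RNA of the non-coding gene Snhg4, was at 6.02, 6.06 and 6.24 in Nkx2-1-shRNA lines, against 6.57, 6.53 and 6.93 in empty vector lines (log2 fold change −0.57 ± 0.13 (SE), limma adjusted p = 0.0263). Snora16a, in Snhg12, was at 7.25, 7.32 and 7.60 in Nkx2-1-shRNA lines, against 8.02, 7.83 and 7.89 in empty vector lines (log2 fold change −0.52 ± 0.12 (SE), limma adjusted p = 0.0237). Its companion in Snhg12, Snora44, overlapped between groups (log2 fold change −0.17, adjusted p = 0.613).

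Other RNAs with roles in cleavage of the ribosomal RNA precursor did not pass the threshold. Snord118, or U8, which is needed for maturation of 5.8S and 28S ribosomal RNA, was at 4.57, 5.11 and 4.71 in Nkx2-1-shRNA lines, against 5.22, 5.95 and 5.46 in empty vector lines. All knockdown lines were under all empty vector lines, with an adjusted p of 0.0605 and a log2 fold change of −0.74 (95% interval −1.26 to −0.23). Its 2 clusters hold identical values and were counted once. Snora73a and Snora73b, the U17 RNAs of Snhg3, which act in early cleavage toward 18S ribosomal RNA, likewise did not overlap between groups. Snora73a was at 8.01, 7.92 and 8.05 in Nkx2-1-shRNA lines, against 8.45, 8.45 and 8.15 in empty vector lines (adjusted p = 0.0663). Snora73b differed by −0.43 on the log2 scale (adjusted p = 0.0812). Snord22, in Snhg1, was also without overlap (log2 fold change −0.32, adjusted p = 0.107); in frog oocytes it takes part in 18S ribosomal RNA processing. The U3 RNA gene Rnu3a, which is not a member by name, varied too much within groups to be judged, with 5.56, 7.72 and 5.60 in Nkx2-1-shRNA lines, against 6.18, 8.22 and 8.33 in empty vector lines.

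A few members had differences near 0. Snord49a and Snord49b, of the non-coding gene 2410006H16Rik, had log2 fold changes of −0.01 and 0.06, and the 95% limits for Snord49b were −0.30 to 0.42. Snord35a, in Rpl13a, had 0.04 with limits of −0.67 to 0.74. In rodent cells the Rpl13a snoRNAs are known for a part in lipotoxic and oxidative stress. Snord104, Snora69 and Snord96a had fold changes between −0.10 and −0.03. Snora41, in the elongation factor gene Eef1b2, was not one of these. It was at 5.18, 4.93 and 5.20 in Nkx2-1-shRNA lines, against 5.22, 5.51 and 5.68 in empty vector lines. The groups did not overlap, and Snora41 was not called (log2 fold change −0.37, limma adjusted p = 0.134).

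Some snoRNAs varied widely among lines of the same group. Of the 51, 7 had a pooled SD above 0.4 (Snord104, Snord15a, Snord15b, Snord33, Snord35a, Snord57 and Snora52), and none of these was called. All 7 were highest among the knockdown arrays in line 2, and 5 were lowest among the control arrays in line 1. Snord57, carried by the box C/D core protein gene Nop56, was at 8.14, 8.89 and 8.23 in Nkx2-1-shRNA lines, against 8.51, 9.21 and 9.43 in empty vector lines. Snora52, in Rplp2, was at 7.23, 8.26 and 7.48 in Nkx2-1-shRNA lines, against 7.11, 8.26 and 8.60 in empty vector lines. Line 2 of the knockdown and lines 2 and 3 of the control were the high arrays for both. Among the 44 snoRNAs with a smaller spread, 19 were called and 43 had a fold change below 0.

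The same arrays were high for other short RNAs. The mean log2 value of 6 RNA polymerase III transcripts (Rmrp, Rn7sk, Rny1, Rny3, Rpph1 and Vaultrc5) was 8.62, 9.81 and 8.73 in Nkx2-1-shRNA lines 1 to 3, against 8.41, 9.51 and 9.96 in empty vector lines 1 to 3. These levels overlapped between the groups. With this mean as a covariate, added after the data had been seen, 22 snoRNAs were lower (14 box C/D and 8 box H/ACA), against 9.79% of all clusters, and 48 fold changes were below 0. Without both Nkx2-1-shRNA line 2 and empty vector line 1, also chosen afterwards, 7 were lower, against 3.57% of all clusters, and 50 were below 0 with a median of −0.41. This fit sets low knockdown arrays against high control arrays, so it cannot separate the group from the array pattern. Arrays of like level were also compared afterwards. The median snoRNA difference was −0.41 for knockdown lines 1 and 3 against control line 1. For knockdown line 2 against control lines 2 and 3 it was −0.42. The medians of all clusters were −0.03 and −0.04. The part of this array pattern in the values of single snoRNAs was otherwise not tested.

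**Figure D2:**
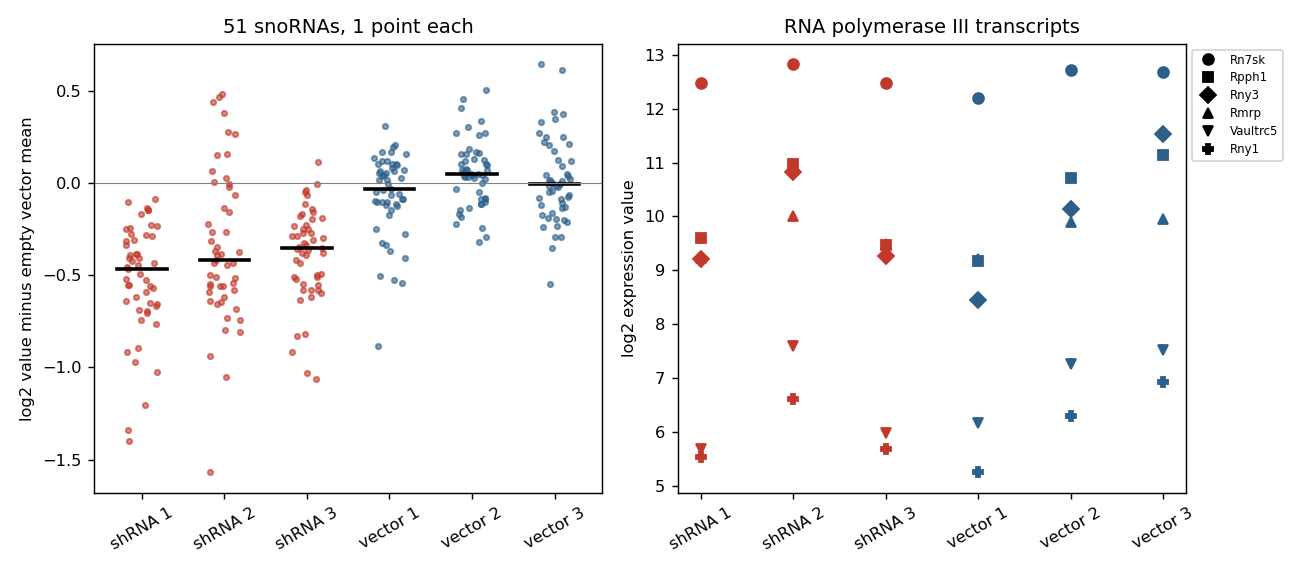
Left, log2 value of each of the 51 snoRNAs minus its mean in the 3 empty vector arrays, by array (points, snoRNAs; bars, medians; Nkx2-1-shRNA arrays first); right, log2 values of 6 RNA polymerase III transcripts in the same arrays. The medians are −0.47, −0.42 and −0.35 in Nkx2-1-shRNA lines and −0.03, 0.05 and 0.00 in empty vector lines, while the polymerase III transcripts are low in 2 knockdown arrays and 1 control array.

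The host genes that are members showed small differences in both directions. Gas5, a growth arrest transcript whose exons are known to act as a decoy for the glucocorticoid receptor, was at 11.48, 11.42 and 11.56 in Nkx2-1-shRNA lines, against 11.54, 11.37 and 11.27 in empty vector lines (log2 fold change 0.10 ± 0.10 (SE), limma adjusted p = 0.583). Its levels overlapped. Snord47, the member lying in a Gas5 intron, was at 5.77, 5.82 and 6.17 in Nkx2-1-shRNA lines, against 6.66, 6.56 and 6.17 in empty vector lines, overlapping and not called (log2 fold change −0.54, adjusted p = 0.0693). Gas5 was covered by 3 more clusters with lower means, and these had log2 fold changes of −0.49 (adjusted p = 0.00765), −0.38 (adjusted p = 0.159) and −0.55 (adjusted p = 0.132). The direction given for Gas5 therefore holds for the cluster with the highest mean only, and the average of the 4 clusters differed by −0.33 (adjusted p = 0.113).

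Snhg17 was at 8.56, 8.44 and 8.39 in Nkx2-1-shRNA lines, against 8.62, 8.96 and 8.59 in empty vector lines (log2 fold change −0.26, adjusted p = 0.21). All knockdown lines were below all control lines, as in its 2 other clusters, of which 1 was called (log2 fold change −0.41, adjusted p = 0.0135). Snhg15 was at 7.27, 7.35 and 7.46 in Nkx2-1-shRNA lines, against 7.22, 7.25 and 7.24 in empty vector lines, with every knockdown line above every control line (log2 fold change 0.12, adjusted p = 0.367). Snhg5 averaged 8.54 ± 0.09 in Nkx2-1-shRNA lines and 8.63 ± 0.08 in empty vector lines (SD, n = 3 each) and was not called (limma adjusted p = 0.541). Likewise, Snhg16 averaged 6.22 ± 0.11 in Nkx2-1-shRNA lines and 6.08 ± 0.14 in empty vector lines (SD, n = 3 each) (limma adjusted p = 0.472). Snhg11, with a log2 fold change of −0.07, took a value just above 0 after quantile normalization was repeated or the arrays were centered.

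To compare snoRNAs with their host genes, 24 hosts named alone by a transcript cluster were paired with the 28 snoRNAs they hold. These were 23 protein-coding genes and Gas5. Of the hosts 10 had several clusters, and the cluster with the highest mean, which was used, may lie at another copy of the gene. The log2 fold change of the snoRNA was below that of its host in 21 of the 24, the median host value being −0.06 and the median difference −0.44. The snoRNA value minus the host value, taken within each array, was lower in all 3 Nkx2-1-shRNA lines than in all 3 empty vector lines for 16 hosts, higher for 1 and overlapping for 7. The exact permutation test of 3 against 3 lines cannot go below p = 0.1, which after adjustment over the 24 hosts was 0.141. The pairing was repeated with the host cluster nearest to the snoRNA by its number on the array, up to 100 numbers away, a choice made after the data had been seen. Cluster numbers served as a stand-in for position, since 99.7% of neighboring numbers of genes with 1 cluster lay on the same chromosome. Such a cluster was found for 21 hosts and was another one than before for 8. The snoRNA fold change was then below that of the host in 17 of 21, with a median difference of −0.40, and the arrays were without overlap below for 13, without overlap above for 1 and overlapping for 7. Of all 51 snoRNAs, 49 had a fold change below 0, so many genes with little change would give such differences. Pairs of snoRNAs with unrelated genes were not compared, and these counts cannot be read as particular to a snoRNA and its own host.

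The Hspa8 cluster with the highest mean was at 12.28, 12.27 and 12.26 in Nkx2-1-shRNA lines, against 12.51, 12.51 and 12.58 in empty vector lines (log2 fold change −0.26 ± 0.07 (SE), limma adjusted p = 0.0471) and fell, and Snord14e minus this cluster differed by −1.08 between the groups. The Hspa8 cluster numbered beside Snord14e was not called (log2 fold change −0.38, adjusted p = 0.0539), and the difference against it was −0.96. Rpl4 was at 11.69, 11.74 and 11.73 in Nkx2-1-shRNA lines, against 11.74, 11.76 and 11.81 in empty vector lines and was not called (adjusted p = 0.716), and Snord16a minus Rpl4 differed by −1.05. Ipo7, an importin gene, was higher at 10.74, 10.68 and 10.77 in Nkx2-1-shRNA lines, against 10.30, 10.31 and 10.32 in empty vector lines (log2 fold change 0.42 ± 0.07 (SE), limma adjusted p = 0.00916), while its Snora23 showed a log2 difference of −0.25 that was not called (adjusted p = 0.461). Chd8 fell (log2 fold change −0.49, adjusted p = 0.021) together with Snord8. Rbmx fell by more than any other host, to 7.89, 7.76 and 7.80 in Nkx2-1-shRNA lines, against 9.35, 9.22 and 8.89 in empty vector lines (log2 fold change −1.34 ± 0.13 (SE), limma adjusted p = 0.000924), and was, with Chd8 and Rps12, 1 of 3 hosts with a positive difference, and the one whose arrays did not overlap in that direction. Its snoRNA was under the background limit. By type of host, 16 of 38 snoRNAs in protein-coding genes were lower (median −0.38) and 3 of 12 in non-coding genes (median −0.35). The difference between these types was not tested.

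**Figure D3:**
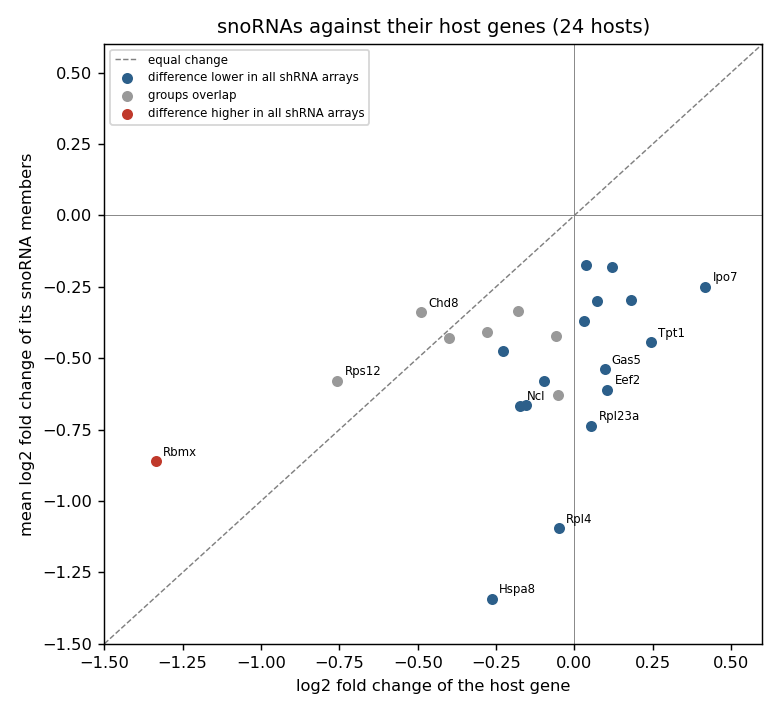
Mean log2 fold change of the snoRNA members of a host (vertical) against the log2 fold change of the host gene (horizontal) for 24 hosts, with the line of equal change dashed and the host cluster of highest mean used; colors mark whether the within-array difference of snoRNA and host separated the 3 Nkx2-1-shRNA from the 3 empty vector lines. 21 hosts lie below the line, and Rbmx, Chd8 and Rps12 lie above it.

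Many host transcripts are known to begin with a terminal oligopyrimidine tract, a C at the start followed by a run of C and T, which puts their translation under nutrient control. A selection of start sites, with the tract and without it, is shown for hosts of called snoRNAs and for Gas5, from RefSeq with GRCm38.p6 coordinates. Each window runs from 10 bases before the annotated start to the 20th base of the transcript, 5′ to 3′ on the transcribed strand, with the tract in capitals.
Rpl27a (host of Snora3; chr7:109519185-109519214, + strand): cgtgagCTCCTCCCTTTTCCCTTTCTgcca
Rack1 (host of Snord95; chr11:48800350-48800379, + strand): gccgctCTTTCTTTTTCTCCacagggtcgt
Snhg12 (host of Snora16a; chr4:132308668-132308697, + strand): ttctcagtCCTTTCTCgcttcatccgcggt
Gas5 (host of Snord47, one of its annotated starts; chr1:161035156-161035185, + strand): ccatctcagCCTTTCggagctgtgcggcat
Rpl4 (host of Snord16a; chr9:64173377-64173406, + strand): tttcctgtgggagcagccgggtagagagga
Eef2 (host of Snord37; chr10:81176621-81176650, + strand): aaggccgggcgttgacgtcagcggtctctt

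The tract was called as at least 6 C or T in a row, opening with a C within 5 bases of the annotated start, on the transcribed strand only. It was present in 10 of the 36 hosts with a start window (27.8%), in 17 of 51 ribosomal protein genes (33.3%) and in 11.95% of 27025 genes. The 36 include Snhg5, Snhg11, Snhg15, Snhg16 and Snhg17, which hold none of the snoRNA members, and none of these had the tract. Of 13 hosts of called snoRNAs with a window 4 had the tract, and another 4 had no window here. A window without the tract says only that these letters are not at that annotated start.

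Few genes that build and trim snoRNA particles were called, and the shares to set beside these lists were 9.24% lower and 7.61% higher over all clusters. Of the 5 box C/D core and associated proteins measured (Fbl, the methyltransferase fibrillarin, with Nop56, Nop58, Snu13 and Rrp9) none was called, and Fbl averaged 8.15 ± 0.17 in Nkx2-1-shRNA lines and 8.29 ± 0.21 in empty vector lines (SD, n = 3 each). Of the 4 box H/ACA core proteins 1 was lower, Nop10, at 8.38, 8.31 and 8.53 in Nkx2-1-shRNA lines, against 8.88, 8.96 and 8.79 in empty vector lines (log2 fold change −0.47 ± 0.09 (SE), limma adjusted p = 0.0154). Among 13 assembly and trafficking factors 1 was lower (Nolc1, a nucleolar chaperone of these particles, log2 fold change −0.30, adjusted p = 0.0458) and 1 higher (Pih1d1, of the R2TP complex, 0.34, adjusted p = 0.036). Among 17 genes for release and trimming, 1 was lower and 2 were higher. These were the nuclear exosome nuclease Exosc10 (−0.44, adjusted p = 0.0122), the exosome subunit Exosc5 (0.82, adjusted p = 0.010) and the deadenylase Parn (0.44, adjusted p = 0.0236).

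In the ribosome pathway around them the calls were also mixed, against the same shares of all clusters (12.7% lower among clusters above the background limit). Of 12 genes for RNA polymerase I and its factors 3 were lower and none was higher: Polr1e (−0.82, adjusted p = 0.000786), Taf1d (−0.68, adjusted p = 0.00805) and Taf1c (−0.32, adjusted p = 0.0489). Taf1d had 9 clusters, and its value is that of the cluster with the highest mean only. Of 21 genes for nucleolar processing of ribosomal RNA 4 were lower and 2 higher, with Dhx37 at −0.74 (adjusted p = 0.00223) and Nop14 at 0.78 (adjusted p = 0.00128). Genes with a ribosomal protein symbol had a median log2 fold change of −0.04 (0.04 with centered arrays), with 3 lower and 2 higher of 63. The lower ones were Rps28, Rpl7l1 and Rpl10l, the last under the background limit in both groups. This list was taken by symbol prefix and also holds paralogs and genes such as Rps19bp1 that do not encode ribosomal proteins. Of 11 nonsense-mediated decay genes, a pathway known to degrade spliced host RNAs such as Gas5, 1 was lower (Upf1, −0.37, adjusted p = 0.0201) and 1 higher (Smg9, 0.56, adjusted p = 0.00298). Of 11 genes in a list for translation of tract-bearing mRNAs, which also held the transcription factor gene Myc, 3 were lower and 3 higher. The lower genes were Eif4ebp2 (−0.84, adjusted p = 0.0109), Tsc2 (−0.41, adjusted p = 0.0337) and Mlst8 (−0.41, adjusted p = 0.036). The higher genes were Myc (0.95, adjusted p = 0.000945), Eif4ebp1 (0.98, adjusted p = 0.00344) and Rheb (0.83, adjusted p = 0.0129).

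**Figure D4:**
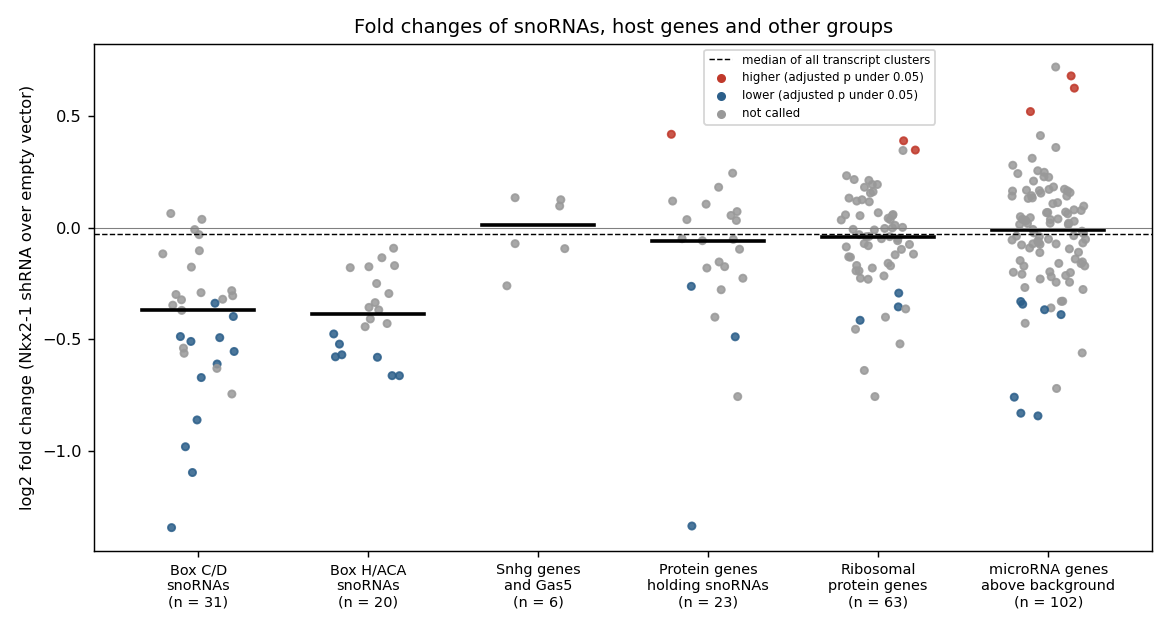
Log2 fold change (Nkx2-1 shRNA over empty vector) of each snoRNA, host gene, protein gene holding a snoRNA, ribosomal protein gene and microRNA gene above background (points; colors mark an adjusted p under 0.05), with group medians as bars and the median of all transcript clusters, −0.03, dashed. The bars of both snoRNA classes lie at −0.37 and −0.39 and those of the other groups between −0.06 and 0.01.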

How the data were processed

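Values were the deposited log2 expression values, which the authors made with Affymetrix Expression Console 1.1 by RMA, which corrects background, forces the probe values of all arrays to 1 distribution, removing any shift shared by all probes, and combines probes into clusters, per the labels. Of 35557 clusters, 21789 had 1 gene symbol, 1621 several and 12147 none. Members and gene lists were chosen with earlier results of these data known. Ribosomal kinases caught by the ribosomal protein prefix were taken out after their values had been seen. Groups were compared with limma 3.58.1 in R 4.3.3 (lmFit and eBayes, two-sided, no block), with Benjamini-Hochberg adjustment over all clusters and a threshold of 0.05; the fit was tested on simulated data. Named members were all host genes, called snoRNAs, and the highest and lowest of each class; other names were chosen after values were seen. Hosts were genes whose RefSeq span holds the snoRNA; strand was not checked and 3 ties were settled by the known host. The planned comparison with Snhg hosts holding at least 2 measured snoRNAs had 0 eligible hosts and was widened to all 24 measured hosts. Same-numbered arrays did not deviate together (correlations of 0.06, 0.14 and −0.03). Array number limits precision.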

Additional observations from a re-analysis of the deposited data

How the results depend on the processing

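Both snoRNA classes had 0 higher calls and the host genes 0 calls in every setting. Lower calls, 12 box C/D and 7 box H/ACA as reported, were 5 and 4 with the methods' t-test, 1 and 0 with unequal variances, 3 and 3 at an adjusted p under 0.01, 0 and 0 under 0.0005, and 6 and 1 without both Nkx2-1-shRNA line 2 and empty vector line 1. Of all 35557 clusters, 1301 were lower at a limma adjusted p under 0.01 and 162 under 0.0005. Lower calls were 15 and 11 among clusters above the median level and 18 and 11 among clusters with 1 gene symbol. In both settings fewer clusters were tested and limma was fitted anew to them. Leaving out single arrays gave 7 to 12 box C/D and 3 to 8 box H/ACA calls, against 5.10% to 7.73% of all clusters. The lowest were without Nkx2-1-shRNA line 1, and without Nkx2-1-shRNA line 2 box H/ACA had 4. The replicate block gave 11 and 6, against 7.80% of all clusters. Calls of 19 named snoRNAs were lost in 1 (Snord16a, Snord42b) to 13 (Snord8) of the settings. The median difference between snoRNA and host was −0.49 to −0.40 with single arrays left out, −0.39 after quantile normalization was repeated and −0.40 with host clusters numbered beside the snoRNA. Gas5 turned to −0.33 with all its clusters averaged. Snhg11 turned to 0.009 after quantile normalization was repeated, 0.0084 after median centering and 0.0021 without both arrays. The causes were not tested. Values near the background limit of 4.35 bound what can be read for Snord61, Snord85 and Snord38a.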

Other observations

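Transcript clusters shared between a snoRNA and a second gene, which the symbol rule left out, also held several lower values. The cluster for Snord14d, Snord14c and Hspa8 was at 8.09, 7.99 and 8.26 in Nkx2-1-shRNA lines, against 9.10, 8.95 and 8.99 in empty vector lines (log2 fold change −0.90 ± 0.10 (SE), limma adjusted p = 0.0015). The cluster for Snord68 and Rpl13 differed by −0.86 on the log2 scale (adjusted p = 0.019), and that for Snord34 and Rpl13a by −0.78 (adjusted p = 0.00681). None of the 17 shared clusters was called higher, and over all clusters 9.24% were lower and 7.61% higher. The 17 are not all separate measurements. Clusters for Snord1c with Snord1b, and for Snora19, each appear again with identical values, and that for Snord14d, Snord14c and Hspa8 with nearly the same values. Signal there cannot be divided between snoRNA and host.

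Among other short RNAs, 1 of 3 scaRNAs, the Cajal body relatives of snoRNAs, was lower: Scarna13, at 6.17, 6.03 and 6.11 in Nkx2-1-shRNA lines, against 6.84, 6.74 and 6.54 in empty vector lines (log2 fold change −0.60 ± 0.10 (SE), limma adjusted p = 0.0088). Scarna17 differed by 0.32 (adjusted p = 0.16) and Scarna8 by −0.24 (adjusted p = 0.124). The share of all clusters called lower was 9.24%. Of 102 microRNA genes above the background limit in both groups, 7 were lower and 3 higher, with a median of −0.01. Of all 21739 clusters above it in both groups, 2751 were lower and 2417 higher.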
